A study of Mus musculus with 12 samples.

Results

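Bone marrow of aged C57BL/6 mice was compared between a group collected 3 days after traumatic brain injury (Aged-TBI, 3 samples) and aged controls (Aged-CON, 3 samples), which makes 6 of the 12 samples of the study. The other 6 are marrow of young mice, 3 after the same injury (Young-TBI) and 3 controls (Young-CON), and they served to share the estimate of spread and to test whether the injury effect differed with age. C57BL/6 is an inbred laboratory mouse strain with no engineered allele named in the labels. The labels give no ages in weeks or months, and they do not state how the injury was made, whether controls had a sham operation, or whether each sample was another animal. The p-values therefore measure only how far these samples spread, and that spread may be technical. RNA was measured per gene as FPKM, a count of sequenced fragments divided by transcript length in kilobases and by the sequenced total of the sample.

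Bone marrow makes the cells of the blood. Stem and progenitor cells, held in their niche by stromal factors such as stem cell factor and Cxcl12, give rise to red cell precursors, neutrophils, monocytes, platelets and lymphocytes. Injury to the brain reaches the marrow through sympathetic nerves, adrenal hormones and circulating cytokines. Immediate early genes such as Fos and Junb are transcribed within minutes of a stimulus without new protein synthesis, and interferons keep up a set of antiviral and antigen presentation genes in resting marrow.

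The 6 aged samples carried the markers of marrow. Mpo, a neutrophil granule enzyme, lay between 737 and 896 FPKM, Alas2 of haem synthesis in red cell precursors between 458 and 940 FPKM, Cd79a of the B cell receptor between 38.9 and 58.4 FPKM, and Kit of progenitors between 16.1 and 20.1 FPKM. Plin1 of fat cells was listed at 0 in all 6 and the muscle gene Ckm reached 0.135 FPKM at most, whereas the muscle gene Mylpf lay between 6.91 and 11.3 FPKM. The fragments recovered from the FPKM steps came to between 12.3 M and 15.9 M per sample over all 12 samples. Rn45s, the precursor of ribosomal RNA, had 2370, 1710 and 2520 FPKM in Aged-TBI and 1030, 1240 and 554 FPKM in Aged-CON (adjusted p = 0.0917, and 0.00956 without Aged-CON 1). Its part in the results was not tested.

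One control stood apart. Across the tested genes, Aged-CON 1 correlated with the 3 Aged-TBI samples at between 0.988 and 0.989, and with Aged-CON 2 and 3 at 0.982 and 0.980. These are correlations across genes within samples and genes are not independent. Red cell genes were higher in Aged-CON 1 than in the other controls: the mean log2 level of the erythroid list was 7.15, 7.27 and 7.25 in Aged-TBI, against 6.99, 6.20 and 6.14 in Aged-CON 1, 2 and 3. Neutrophil genes went the other way, with mean levels of the mature neutrophil list of 7.31, 7.39 and 7.30 in Aged-TBI and 7.36, 7.94 and 7.91 in Aged-CON. In bulk marrow, a difference in the number of cells of a type and one in RNA per cell cannot be told apart. For most lists described below that differed between this control and the other 2, the values against each are given. Of lists not described below, the eosinophil median was 0.08 against Aged-CON 1 and −1.42 against Aged-CON 2 and 3. That of clustered histones was −0.02 against Aged-CON 1 and 0.48 against Aged-CON 2 and 3.

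Of 11767 tested genes, 38 passed at an adjusted p under 0.05 (0.323%), 7 higher in Aged-TBI (0.0595%) and 31 lower (0.263%). In all 38 the 3 Aged-TBI samples lay beyond all 3 Aged-CON samples, including Aged-CON 1. Non-overlap by itself was common: 9.19% of tested genes had every Aged-TBI sample above every Aged-CON sample, and 13% had every one below. At an unadjusted p below 0.05, 10.8% of genes were higher and 13.1% lower. The list counts at that p given below are to be set beside these shares. The median log2 change of all tested genes was −0.02. The number of calls depended on single libraries. It was 3266 without Aged-CON 1 (14.9% of genes higher and 12.9% lower), 11 without Aged-TBI 1, 19 without Aged-TBI 2, 11 without Aged-TBI 3, 11 without Aged-CON 2, 89 without Aged-CON 3, 19 without Young-TBI 2 and 25 without Young-CON 3. Of the 38 genes, 38, 11 and 34 stayed called without Aged-CON 1, 2 and 3, and 11, 16 and 10 stayed called without Aged-TBI 1, 2 and 3. Each of the 28 genes that lost its call without an aged sample lost it without Aged-TBI 3. Of the 3266 genes called without Aged-CON 1, 2101 had the same sign when the Aged-TBI mean was set against Aged-CON 1 itself.

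Leaving out any 1 of the 6 aged samples kept the calls of 9 genes named here: Kitl, Osm, Fos, Zfp36, Junb, Ier2, Il1b, Ptgs2 and Hist1h1c. The mean level of the erythroid list moved with the groups, so the fit was repeated with that level as a covariate. It then called 10 genes (0.0850%), 7 of them among the 38, with Kitl, Osm, Fos, Zfp36, Ptgs2 and Hist1h1c in that number. All 38 kept their sign in that fit. Of the 38, 4 genes, Kitl, Osm, Fos and Zfp36, kept their calls without any 1 aged sample and under each other changed setting. Leaving out single young samples was not in that count. Ptgs2, Hist1h1c and Ier2 lost their calls in the fit of only the 6 aged samples.

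**Figure D1:**
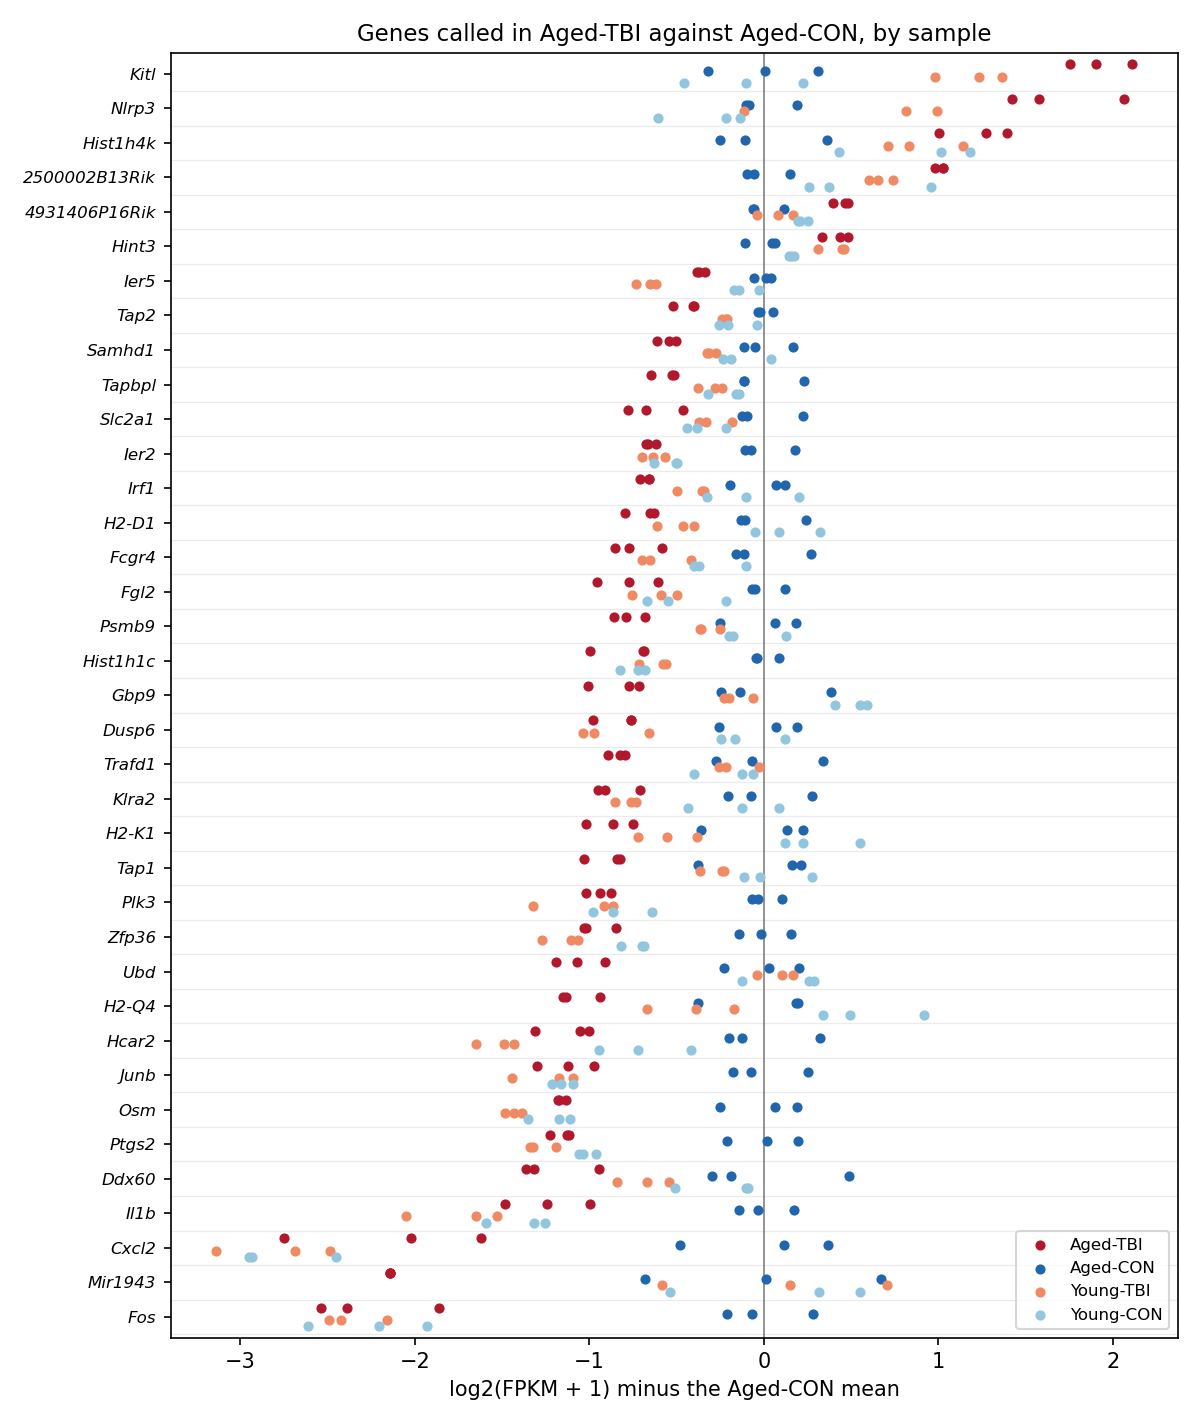
Each point is 1 sample's log2(FPKM + 1) minus the mean of the 3 Aged-CON samples, for 37 of the 38 genes called in Aged-TBI against Aged-CON, with all 4 groups shown in order from Aged-TBI to Young-CON within a row. In every row the 3 Aged-TBI points lie on one side of the 3 Aged-CON points.

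The rise of a niche factor held without any 1 aged sample. Kitl encodes stem cell factor, the ligand of the receptor Kit that keeps stem cells, progenitors and mast cells alive. It had 94.4, 105 and 121 FPKM in Aged-TBI, against 34.1, 27.4 and 21.7 FPKM in Aged-CON, a ratio of means of 3.84 (log2 change 1.92, SE 0.19, adjusted p = 0.00114). The lowest Aged-TBI sample lay well above the highest control, which was Aged-CON 1. With the erythroid covariate the log2 change of Kitl was 1.94 (adjusted p = 0.0181).

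Other genes of the niche did not pass. Of 15 tested genes of stroma, bone and endothelium, Kitl alone was called and 14 had negative differences, with a list median of −0.30. It was −0.23 against Aged-CON 1 and −0.41 against Aged-CON 2 and 3. Cxcl12, the chemokine that retains stem cells and neutrophils, ran widely, at 2.65, 24.2 and 9.33 FPKM in Aged-TBI and 19.7, 27.0 and 35.0 FPKM in Aged-CON (adjusted p = 0.135). Lepr, a marker of the stromal cells that make stem cell factor, had 0.324, 2.12 and 0.624 FPKM in Aged-TBI against 1.71, 1.95 and 2.56 FPKM in Aged-CON (adjusted p = 0.145). The 2 groups overlapped for both genes, and Aged-TBI 2 was the high sample of its group in each.

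Nlrp3, the sensor of the inflammasome that cleaves pro-interleukin-1, had 29.0, 32.5 and 45.9 FPKM in Aged-TBI and 11.8, 9.55 and 9.43 FPKM in Aged-CON (ratio of means 3.49, log2 change 1.69, SE 0.26, adjusted p = 0.0223). The other genes of its pathway had negative differences where they stood out. Il1b fell, as given below, and Gsdmd, the pore-forming gasdermin D, had 42.3, 41.6 and 44.1 FPKM in Aged-TBI against 51.7, 64.6 and 62.5 FPKM in Aged-CON (log2 difference −0.47, adjusted p = 0.0795). Casp1, the protease of the complex, had a log2 difference of −0.43 (adjusted p = 0.0902). Of 14 tested inflammasome genes, 1 was called higher and 1 lower, with 6 lower at an unadjusted p below 0.05, against 13.1% of all tested genes. The list median was −0.01 against Aged-CON 1 and −0.26 against Aged-CON 2 and 3. The Nlrp3 call ended without Aged-TBI 1, 2 or 3 or Aged-CON 2, with adjusted p up to 0.124.

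A further 4 rises were of smaller size or of rarer transcripts. The unannotated 2500002B13Rik had 11.7, 12.1 and 12.1 FPKM in Aged-TBI and 6.16, 5.20 and 5.02 FPKM in Aged-CON (log2 change 1.01, adjusted p = 0.0175). Hist1h4k, a histone H4 gene with near-identical copies whose reads may be shared, had 5.44, 7.43 and 6.75 FPKM against 3.12, 1.97 and 1.69 FPKM in Aged-CON (log2 change 1.22, adjusted p = 0.0374). 4931406P16Rik and Hint3 rose by 0.45 and 0.42 (adjusted p = 0.0371 and 0.0414), and Hint3 overlaps Ncoa7 on the same strand. All 4 calls ended without any 1 of the Aged-TBI samples or Aged-CON 2, and those of Hist1h4k and 4931406P16Rik also without Aged-CON 3.

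Among immediate early genes and feedback inhibitors of MAPK and NF-kB signalling, 4 of 18 and 2 of 20 tested members fell in Aged-TBI and none rose. Fos, a subunit of the transcription factor AP-1, had 14.6, 23.9 and 16.3 FPKM in Aged-TBI, against 85.3, 109 and 77.3 FPKM in Aged-CON, a ratio of means of 0.202 (log2 change −2.26, SE 0.20, adjusted p = 0.000744). Its partner Junb had 55.2, 61.3 and 48.6 FPKM in Aged-TBI and 115, 145 and 107 FPKM in Aged-CON (log2 change −1.13, SE 0.12, adjusted p = 0.00249). The highest Aged-TBI sample was far under the lowest control for both, and Aged-CON 1 lay between the other controls. Ier2, a short-lived nuclear protein gene, had 64.7, 64.2 and 66.8 FPKM in Aged-TBI and 95.8, 117 and 97.9 FPKM in Aged-CON (log2 change −0.65, adjusted p = 0.00459). Ier5 fell by 0.37 (adjusted p = 0.0308), a call that ended without any 1 Aged-TBI sample or Aged-CON 2. Of 18 tested immediate early genes these 4 fell, none rose, and 11 were lower at an unadjusted p below 0.05, with a median log2 difference of −0.36 against −0.02 over all genes. The median was −0.36 against Aged-CON 1 and −0.39 against Aged-CON 2 and 3. Junb overlaps Prdx2 on the other strand, and whether counting used strand is not given in the sources used here.

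Zfp36 encodes tristetraprolin, which binds and destabilises mRNAs of cytokines such as Tnf. It had 99.0, 112 and 98.3 FPKM in Aged-TBI, against 183, 225 and 200 FPKM in Aged-CON (ratio of means 0.508, log2 change −0.97, SE 0.09, adjusted p = 0.000744). Dusp6, a phosphatase that switches off ERK kinases, had 20.6, 24.2 and 24.2 FPKM in Aged-TBI and 34.7, 47.6 and 43.7 FPKM in Aged-CON (log2 change −0.83, adjusted p = 0.033). Its call ended without any 1 aged sample other than Aged-CON 1. Both belong to a list of 20 tested feedback inhibitors of MAPK and NF-kB signalling, of which these 2 fell, none rose, and 9 were lower at an unadjusted p below 0.05 (median −0.23). Among those that missed the threshold, Dusp1, a phosphatase that switches off p38 and JNK, had 32.5, 48.8 and 43.0 FPKM in Aged-TBI and 57.6, 94.0 and 88.6 FPKM in Aged-CON (log2 difference −0.92, adjusted p = 0.103), and Rgs2, which curbs signalling of G proteins, and Nfkbiz, a nuclear regulator of NF-kB, had log2 differences of −0.51 and −0.43 (adjusted p = 0.0917 for each). Plk3, a stress-responsive kinase outside these lists, fell with a log2 change of −0.95 (adjusted p = 0.00947), a call that ended without Aged-TBI 1, Aged-TBI 3 or Aged-CON 2.

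The promoters of 3 of these genes are shown as examples, each chosen with a motif that it holds. Each line gives the 250 bases before the RefSeq start on GRCm38.p6, read on the gene's strand. Capitals mark TGACG, the core of the cAMP response element that CREB and ATF factors bind, in Fos (chr12:85473640-85473889, plus strand) and Junb (chr8:84978749-84978998, minus strand). In Zfp36 (chr7:28379229-28379478, minus strand) they mark a CArG box, the site of serum response factor.

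Fos: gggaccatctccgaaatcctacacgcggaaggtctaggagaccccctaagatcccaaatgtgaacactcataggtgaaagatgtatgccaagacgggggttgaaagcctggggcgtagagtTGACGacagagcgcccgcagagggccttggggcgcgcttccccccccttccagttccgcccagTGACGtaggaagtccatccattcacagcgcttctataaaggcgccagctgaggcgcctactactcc

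Junb: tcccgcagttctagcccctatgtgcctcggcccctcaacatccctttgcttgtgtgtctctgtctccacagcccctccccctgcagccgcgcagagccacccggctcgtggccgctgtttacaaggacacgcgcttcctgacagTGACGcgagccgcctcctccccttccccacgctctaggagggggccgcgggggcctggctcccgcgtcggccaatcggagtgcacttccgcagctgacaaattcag

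Zfp36: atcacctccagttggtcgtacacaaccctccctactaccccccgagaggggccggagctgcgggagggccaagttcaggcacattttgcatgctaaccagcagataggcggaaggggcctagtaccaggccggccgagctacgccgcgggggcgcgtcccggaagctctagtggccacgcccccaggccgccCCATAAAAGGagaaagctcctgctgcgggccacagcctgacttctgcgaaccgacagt

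TGACG was searched on both strands and began 129 and 66 bases before the start of Fos and 106 bases before that of Junb. Among the 14 immediate early promoters found, 8 held it (57.1%), and so did 10 of 16 promoters of the MHC class I list (62.5%), 20.8% of all 32851 promoters and 31.2% of the 11204 promoters of tested genes. The full element TGACGTCA, which contains TGACG, was in 1 of the 14 and in 1.79% of all promoters. The CArG box of Zfp36 began 58 bases before its start, and 1.63% of all promoters held one, but none of the 14 immediate early promoters did. The promoters of Ier5 and Dusp6, which also fell, held neither TGACG nor a CArG box, and that of Plk3 held TGACG. Shares were counted in windows that reach from 250 bases before to 50 bases after the start. These matches describe letters in this window and do not show that a factor was bound.

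Cytokine genes were lower as well. Osm encodes oncostatin M, a cytokine made by neutrophils and macrophages. It lay between 9.96 and 10.3 FPKM in the 3 Aged-TBI samples, against 24.9, 27.3 and 19.8 FPKM in Aged-CON (ratio of means 0.421, log2 change −1.16, SE 0.10, adjusted p = 0.000744). Il1b, interleukin-1 beta, had 46.5, 55.5 and 39.3 FPKM in Aged-TBI and 101, 126 and 109 FPKM in Aged-CON (log2 change −1.24, SE 0.16, adjusted p = 0.00645). All Aged-TBI samples were far below all controls for both genes, and Il1b overlaps Il1bos on the other strand. Cxcl2, a chemokine that draws neutrophils through Cxcr2, had 0.822, 2.99 and 2.02 FPKM in Aged-TBI and 12.3, 14.8 and 7.78 FPKM in Aged-CON (ratio of means 0.167, log2 change −2.13, SE 0.30, adjusted p = 0.0135). Ptgs2, the cyclooxygenase that makes prostaglandin precursors, had 0.161, 0.244 and 0.255 FPKM in Aged-TBI, or 9, 15 and 13 recovered fragments, and 2.11, 1.75 and 1.35 FPKM in Aged-CON, or 137, 99 and 89 fragments (log2 change −1.16, adjusted p = 0.00358). At such levels the log2(FPKM + 1) scale understates the change. The Cxcl2 call ended without Aged-TBI 3 or Aged-CON 2, with adjusted p up to 0.0716.

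Of 13 tested inflammatory cytokine and chemokine genes these 4 fell, and at an unadjusted p below 0.05 there were 11 lower and 1 higher (median −0.52). The list median was −0.55 against Aged-CON 1 and −0.51 against Aged-CON 2 and 3, so the list was lower against either set of controls. Of 19 tested Toll-like receptors and adaptors none was called, and 10 were lower at an unadjusted p below 0.05 (median −0.24, and −0.06 against Aged-CON 1 alone). At that p, 13.1% of all tested genes were lower and 10.8% higher. Tlr2, the receptor of bacterial lipoproteins, had 16.7, 18.0 and 13.6 FPKM in Aged-TBI and 22.1, 27.6 and 27.0 FPKM in Aged-CON (log2 difference −0.64, adjusted p = 0.0999).

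Genes of MHC class I antigen presentation formed the second set that fell. H2-K1, a heavy chain of class I molecules, had 318, 355 and 384 FPKM in Aged-TBI, against 709, 756 and 504 FPKM in Aged-CON (ratio of means 0.538, log2 change −0.88, SE 0.16, adjusted p = 0.0474). H2-D1, another heavy chain, had 168, 186 and 189 FPKM in Aged-TBI and 272, 346 and 267 FPKM in Aged-CON (log2 change −0.69, adjusted p = 0.0361). Tap1, a chain of the transporter that brings peptides to class I molecules, had 32.8, 37.5 and 38.0 FPKM in Aged-TBI and 79.0, 76.1 and 52.2 FPKM in Aged-CON (log2 change −0.90, adjusted p = 0.0308). Aged-CON 3 was the low control for H2-K1 and Tap1 and Aged-CON 1 was not, so the control that stood apart in red cell genes did not do so here. Its partner gene Tap2 fell by 0.44, the immunoproteasome subunit gene Psmb9 by 0.78 and H2-Q4, which has near-identical neighbours, by 1.07 (adjusted p = 0.0194, 0.0188 and 0.0371). Psmb9 and Tap1 overlap on opposite strands.

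These 6 were called among 17 tested genes of MHC class I and the immunoproteasome. None rose, 16 were lower at an unadjusted p below 0.05, and in 16 the groups did not overlap. Of all tested genes, 13.1% were lower at that p, and 13% had every Aged-TBI sample below every control. The list median was −0.60, and it was −0.68 against Aged-CON 1 and −0.50 against Aged-CON 2 and 3. All 6 calls ended without Aged-TBI 1, 2 or 3 or Aged-CON 2 (adjusted p up to 0.235). Related genes outside the list fell too. Irf1, the interferon regulatory factor that drives class I genes, had 21.6, 22.4 and 22.4 FPKM in Aged-TBI and 39.1, 37.8 and 31.3 FPKM in Aged-CON (log2 change −0.67, adjusted p = 0.0449). Tapbpl, a peptide editor related to tapasin that overlaps Vamp1 on the other strand, fell by 0.56 and Ubd, a ubiquitin-like modifier induced by interferon gamma, by 1.06 (adjusted p = 0.039 and 0.0147). Ubd had only 3, 7 and 4 recovered fragments in Aged-TBI and 33, 18 and 28 in Aged-CON. Its ratio of means was 0.197, a change that the log2(FPKM + 1) scale understates. The calls of Irf1 and Tapbpl ended without the same 4 samples, and that of Ubd without Aged-TBI 1 or 3.

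Interferon-induced genes had larger differences and wider spread. Ddx60, an RNA helicase of antiviral sensing, had 5.30, 7.42 and 5.50 FPKM in Aged-TBI, against 12.2, 21.7 and 13.2 FPKM in Aged-CON (ratio of means 0.387, log2 change −1.21, SE 0.20, adjusted p = 0.0308). It was the 1 called member of 32 tested type I interferon response genes, of which 25 were lower and 1 higher at an unadjusted p below 0.05 (median −0.79). The mean level of that list was 3.62, 4.16 and 4.08 in Aged-TBI and 4.80, 5.25 and 4.21 in Aged-CON. Aged-CON 3 thus lay close to Aged-TBI 2. Rtp4 had 8.63, 15.9 and 16.1 FPKM in Aged-TBI and 41.7, 83.8 and 28.3 FPKM in Aged-CON (log2 difference −1.75, adjusted p = 0.0784). It did not pass although the groups did not overlap, and the controls themselves spread widely. Gbp9 of the guanylate-binding proteins fell by 0.83 (adjusted p = 0.039), but it overlaps Gbp8 and Gbp4 on the same strand. It was the 1 call among 14 interferon-induced GTPases, all 14 of which were lower at an unadjusted p below 0.05 (median −0.83). That median was −1.01 against Aged-CON 1 and −0.53 against Aged-CON 2 and 3. The mean level of the GTPase list was 2.06, 2.51 and 2.33 in Aged-TBI and 3.49, 3.13 and 2.69 in Aged-CON. Samhd1, which depletes nucleotides, and Trafd1, an inhibitor of innate signalling, fell by 0.55 and 0.84 (adjusted p = 0.0236 and 0.0308). The calls in this paragraph ended without Aged-TBI 1, Aged-TBI 3 or Aged-CON 2, and all but that of Ddx60 also without Aged-TBI 2.

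The upstream sequences of H2-K1 (chr17:34000348-34000597, minus strand) and Ddx60 (chr8:61927837-61928086, plus strand) are shown in the same way, as an example of each set. Capitals mark an NF-kB motif in H2-K1 and GAAANNGAA, the core of the interferon-stimulated response element, in Ddx60.

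H2-K1: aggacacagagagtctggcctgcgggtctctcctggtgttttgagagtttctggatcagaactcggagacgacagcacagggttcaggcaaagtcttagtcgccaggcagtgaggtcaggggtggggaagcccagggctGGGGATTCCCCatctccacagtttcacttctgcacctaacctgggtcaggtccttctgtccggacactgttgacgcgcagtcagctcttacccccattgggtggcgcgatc

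Ddx60: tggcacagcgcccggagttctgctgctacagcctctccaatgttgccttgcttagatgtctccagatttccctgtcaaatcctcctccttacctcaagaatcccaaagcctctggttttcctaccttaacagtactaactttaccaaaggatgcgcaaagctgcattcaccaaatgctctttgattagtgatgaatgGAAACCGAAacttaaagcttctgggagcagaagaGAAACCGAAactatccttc

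GAAANNGAA was searched on both strands and began 53 and 19 bases before the Ddx60 start. It was in 15 of 28 promoters of the type I interferon list, 9 of 10 of the GTPases and 4 of 16 of the MHC class I list, against 8.56% of all promoters. The NF-kB motif was in 6 of the 16 MHC class I promoters and in 8.46% of all promoters. In H2-K1 it gave overlapping matches that began 111 and 110 bases before the start. These shares, too, are a description.

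The remaining genes that fell are given next. Fcgr4, an activating IgG receptor of neutrophils and monocytes, had 21.6, 26.2 and 22.9 FPKM in Aged-TBI and 35.6, 48.2 and 36.8 FPKM in Aged-CON (log2 change −0.74, adjusted p = 0.039). Hcar2, a receptor of niacin and ketone bodies on myeloid cells, fell by 1.12, Klra2, a lectin-like receptor, by 0.86, Fgl2, a fibrinogen-like protein of macrophages, by 0.78 and Slc2a1, the glucose transporter GLUT1, by 0.64 (adjusted p = 0.0137, 0.0308, 0.0269 and 0.0424). Slc2a1 was the 1 call among 23 hypoxia and glycolysis genes, 13 of which were lower at an unadjusted p below 0.05. Without Aged-CON 1, 17 of the 23 fell, and the list median was −0.05 against Aged-CON 1 and −0.31 against Aged-CON 2 and 3. Hist1h1c, a linker histone gene with close relatives, had 42.0, 52.1 and 52.2 FPKM in Aged-TBI and 82.1, 82.2 and 89.9 FPKM in Aged-CON (log2 change −0.79, SE 0.09, adjusted p = 0.00259). Mir1943 was listed at 0 in all 3 Aged-TBI samples and at 1.75, 6.03 and 3.45 FPKM in Aged-CON (adjusted p = 0.0424), which is 2, 6 and 4 recovered fragments. With so few fragments no fold is given, and the entry overlaps Tmem184b on the same strand. Of the genes in this paragraph Hist1h1c kept its call without any 1 aged sample. The others lost it without Aged-TBI 1, Aged-TBI 3 or Aged-CON 2, and some also without Aged-TBI 2 (Fcgr4, Klra2, Slc2a1 and Mir1943) or Aged-CON 3 (Mir1943).

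The young samples show which of the 4 groups, if any, stood out in a fall. In 15 of the 31 genes that fell (48.4%) all 3 Aged-CON samples lay above all other 9 samples, against 0.654% of all tested genes. They included Fos, Junb, Ier2, Zfp36, Osm, Il1b, Cxcl2 and Ptgs2. Fos, for example, had 15.9, 15.1 and 19.3 FPKM in Young-TBI and 18.6, 13.8 and 22.8 FPKM in Young-CON, about the level of Aged-TBI. In 15 genes (48.4%), some of them the same, the 3 Aged-TBI samples lay below all other 9, against 5.84% of all tested genes, and these included H2-K1, H2-D1, Tap1, Psmb9, Irf1, Ubd and Ddx60. H2-K1 had 391, 495 and 439 FPKM in Young-TBI and 755, 946 and 702 FPKM in Young-CON. Ier5, Dusp6, Fcgr4 and Klra2 had neither pattern, and Tap2, Slc2a1 and Tapbpl had both. Among the 7 rises the Aged-TBI samples lay above the other 9 in 5, against 4.56% of all tested genes. The genes were chosen by the aged comparison and their aged groups do not overlap, so shares over all tested genes are not a fair baseline. Of the 1528 tested genes with every Aged-TBI sample below every Aged-CON sample, 687 had Aged-TBI below the other 9. Aged-CON lay above the other 9 in 77 of them. Of the 1081 with every Aged-TBI sample above every Aged-CON sample, 536 had Aged-TBI above the other 9. The shares for Aged-TBI therefore follow largely from the choice of genes.

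**Figure D2:**
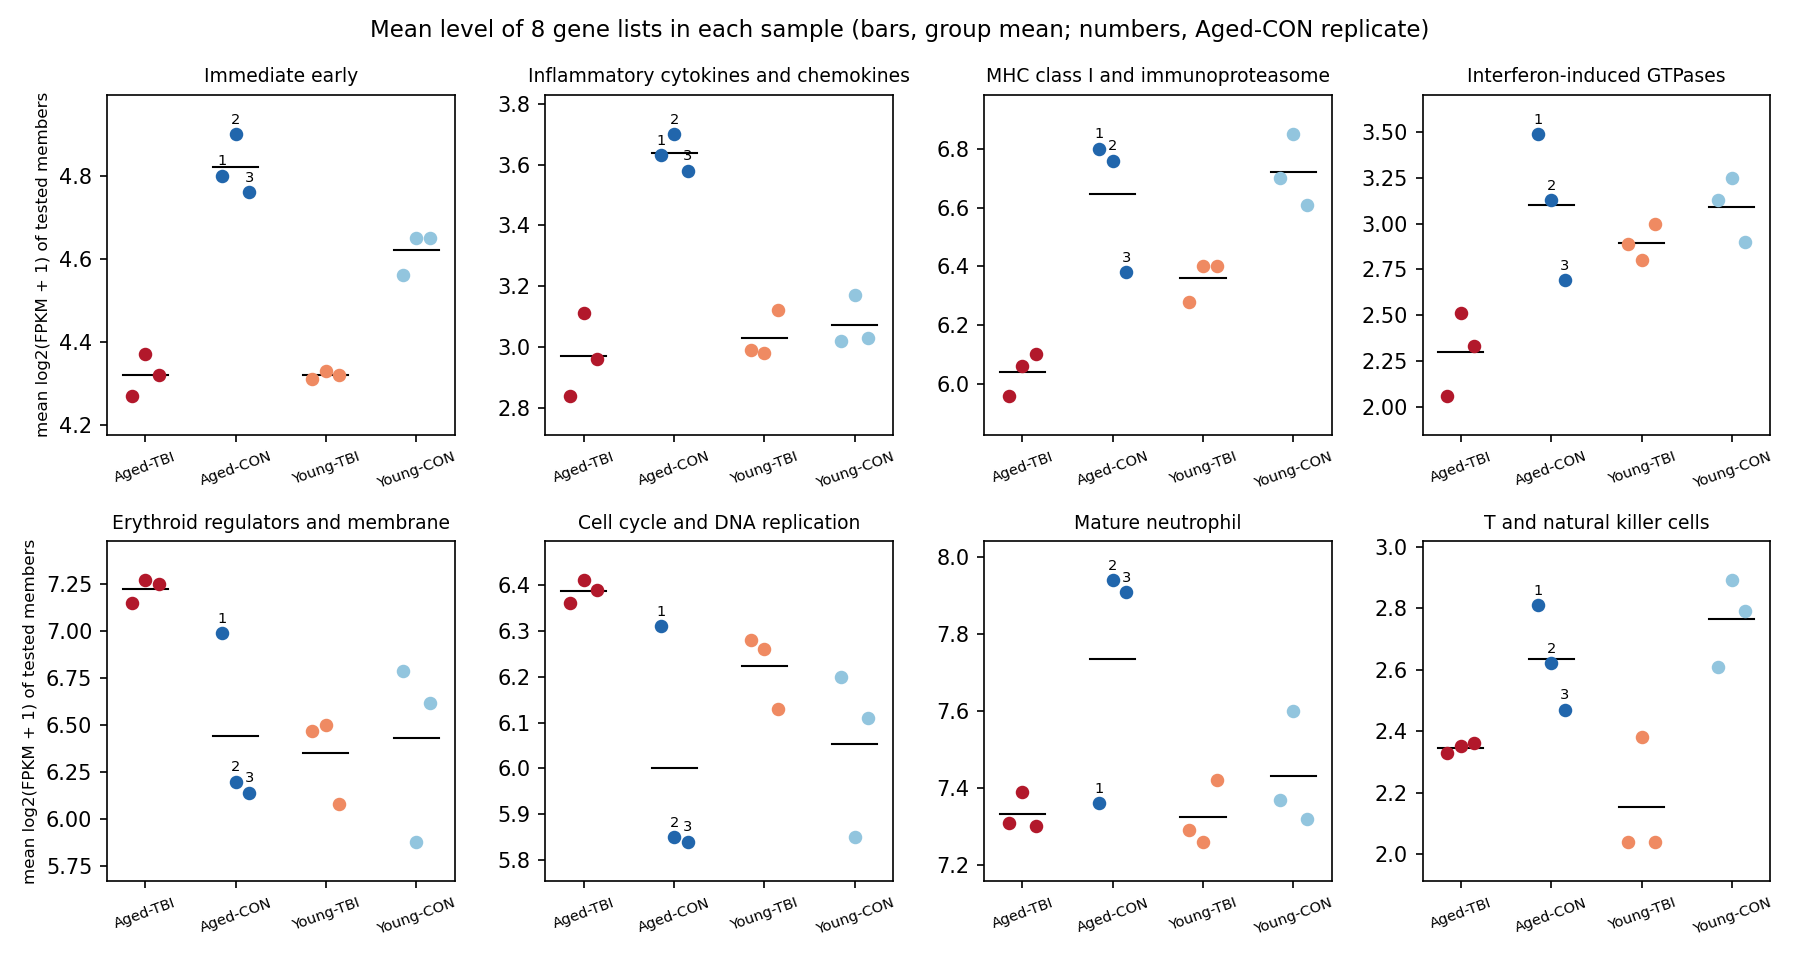
Points are samples and bars group means of the mean log2(FPKM + 1) over the tested members of 8 gene lists, with groups from left to right Aged-TBI, Aged-CON, Young-TBI and Young-CON and Aged-CON samples numbered. Immediate early and cytokine lists are high in all 3 Aged-CON samples, the MHC class I list is low in Aged-TBI, and in the erythroid, cell cycle and mature neutrophil lists Aged-CON 1 lies by Aged-TBI.

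Red cell genes were higher in Aged-TBI, by less against Aged-CON 1 than against the other 2 controls. Of 23 tested erythroid regulator and membrane genes none passed, and 22 were higher at an unadjusted p below 0.05, and the median log2 difference was 0.81. In 20 of the 23 every Aged-TBI sample lay above all 3 controls, and likewise in 14 of 17 genes of haem synthesis and iron uptake, against 9.19% of all tested genes. Without Aged-CON 1 all 23 rose, with a median of 1.11. That control was singled out by its red cell genes, so this count follows in part from the choice of sample. The same holds for the counts and adjusted p-values without it in the haem, cell cycle, ribosomal protein and neutrophil lists. Against Aged-CON 1 itself the median was 0.25, and against Aged-CON 2 and 3 it was 1.11. Gata1, the master regulator of red cell and platelet precursors, had 65.4, 75.0 and 70.4 FPKM in Aged-TBI and 64.6, 40.6 and 35.6 FPKM in Aged-CON (log2 difference 0.62, adjusted p = 0.155; 0.87 and 0.0143 without Aged-CON 1). Slc25a37, which carries iron into mitochondria, had 507, 543 and 536 FPKM in Aged-TBI and 419, 227 and 234 FPKM in Aged-CON (adjusted p = 0.107; 0.00417 without Aged-CON 1). Each Aged-TBI sample was above each control in both genes, but Aged-CON 1 lay close to them. Of the 17 haem synthesis and iron uptake genes none passed and 15 were higher at an unadjusted p below 0.05, and 16 rose without Aged-CON 1. The haem list median was 0.15 against Aged-CON 1 and 0.99 against Aged-CON 2 and 3.

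Cell cycle genes had the same form. Of 30 tested none passed and 28 were higher at an unadjusted p below 0.05 (median 0.38), and all 30 rose without Aged-CON 1. The median was 0.08 against Aged-CON 1 and 0.52 against Aged-CON 2 and 3. E2f2, a transcription factor of S phase that is abundant in red cell precursors, had 148, 161 and 156 FPKM in Aged-TBI and 131, 99.2 and 102 FPKM in Aged-CON (log2 difference 0.49, adjusted p = 0.096; 0.61 and 0.00351 without Aged-CON 1). Of 79 cytosolic ribosomal protein genes none passed, and 7 were higher at an unadjusted p below 0.05, where 10.8% of all tested genes were. Without Aged-CON 1, 67 rose, against 14.9% of all tested genes. The list median was 0.13 in all samples, −0.05 against Aged-CON 1 and 0.21 against Aged-CON 2 and 3.

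Neutrophil genes were the mirror of this. Of 23 mature neutrophil genes Fcgr4 fell and 17 were lower at an unadjusted p below 0.05 (median −0.38), and 22 fell without Aged-CON 1. The median was 0.02 against Aged-CON 1 and −0.55 against Aged-CON 2 and 3. Csf3r, through which the cytokine G-CSF drives granulocyte output, had 214, 211 and 207 FPKM in Aged-TBI and 228, 366 and 373 FPKM in Aged-CON (log2 difference −0.57, adjusted p = 0.114; −0.81 and 0.00338 without Aged-CON 1). The groups did not overlap, and Aged-CON 1 was the lowest control. Of 15 genes of secondary and tertiary granules none passed, and 2 were lower at an unadjusted p below 0.05, near the 13.1% of all tested genes. Of the 15, 13 fell without Aged-CON 1, against 12.9% of all tested genes. Their median was 0.07 against Aged-CON 1 and −0.38 against Aged-CON 2 and 3. The primary granule list was nearly level, with a median of −0.11 over 11 genes and none called, although all 11 differences were negative. Without Aged-CON 1, 1 of them fell, where 12.9% of all tested genes did.

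**Figure D3:**
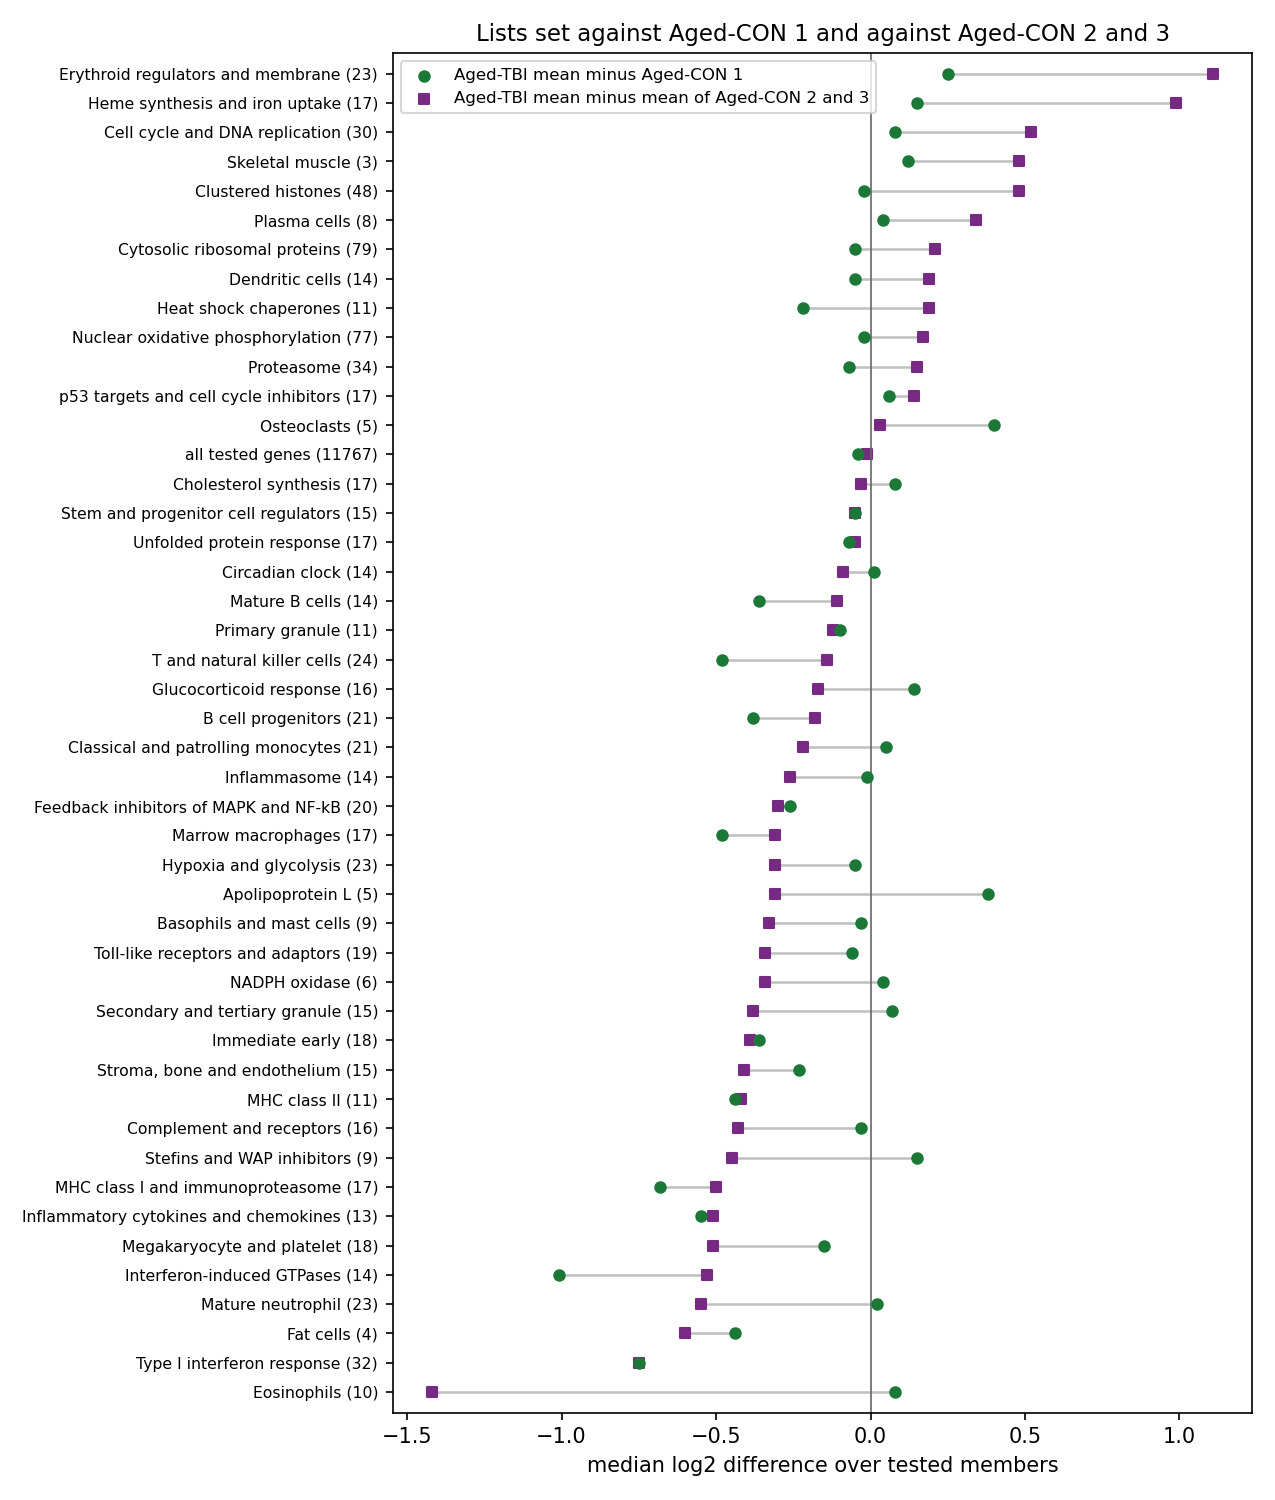
For each gene list drawn (tested members in brackets) the green circle is the median over members of the Aged-TBI mean minus Aged-CON 1 and the purple square that of the Aged-TBI mean minus the mean of Aged-CON 2 and 3, in log2. Erythroid, cell cycle and mature neutrophil lists have circles near 0 and squares far from it, whereas both marks lie together for the immediate early, cytokine and type I interferon lists. Each square averages 2 controls, whose mean log2 levels of the type I interferon list differed, at 5.25 in Aged-CON 2 and 4.21 in Aged-CON 3.

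No gene of the macrophage and lymphoid lists passed. Of 17 macrophage genes 8 were lower at an unadjusted p below 0.05 (median −0.31), against 13.1% of all tested genes. In this list, 3 genes encode the chains of complement C1q. C1qa had 15.2, 20.9 and 18.5 FPKM in Aged-TBI, against 34.3, 34.4 and 29.8 FPKM in Aged-CON (log2 difference −0.83, adjusted p = 0.0735). C1qb and C1qc had log2 differences of −0.91 and −0.81 (adjusted p = 0.103 for each). The groups did not overlap for any of the 3 chains. The macrophage list had a median of −0.48 against Aged-CON 1 and −0.31 against Aged-CON 2 and 3.

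Among 24 genes of T cells and natural killer cells none passed, 7 were lower at an unadjusted p below 0.05, and all 24 had negative differences (median −0.28). At that p, 13.1% of all tested genes were lower, the share to set beside each such count in this paragraph. The median of the T and natural killer list was −0.48 against Aged-CON 1 and −0.14 against Aged-CON 2 and 3. Without Aged-CON 1, 1 gene of it fell, where 12.9% of all tested genes did. The mean level of this list was 2.33, 2.35 and 2.36 in Aged-TBI and 2.81, 2.62 and 2.47 in Aged-CON. Klrd1, the natural killer receptor chain CD94, had 10.7, 9.04 and 8.91 FPKM in Aged-TBI and 12.2, 14.4 and 13 FPKM in Aged-CON (adjusted p = 0.113). Of 21 B cell progenitor genes 6 were lower at an unadjusted p below 0.05 and 5 had positive differences, with a median of −0.38 against Aged-CON 1 and −0.18 against Aged-CON 2 and 3. Vpreb1, of the surrogate light chain, had 0.773, 0.879 and 1.69 FPKM in Aged-TBI and 1.91, 2.48 and 2.78 FPKM in Aged-CON (log2 difference −0.70, adjusted p = 0.11). Of 11 MHC class II genes 8 were lower at an unadjusted p below 0.05, and H2-Aa had 116, 150 and 119 FPKM in Aged-TBI and 212, 184 and 203 FPKM in Aged-CON (adjusted p = 0.118).

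Of 21 monocyte genes none was called and 3 were lower at an unadjusted p below 0.05, near the 13.1% of all tested genes. Without Aged-CON 1, 6 fell, and the median was 0.05 against Aged-CON 1 and −0.22 against Aged-CON 2 and 3. Ly6c2, which marks classical monocytes, had 802, 760 and 856 FPKM in Aged-TBI and 1010, 1230 and 937 FPKM in Aged-CON (log2 difference −0.39, adjusted p = 0.11). Of 8 plasma cell genes none passed and 2 were higher at an unadjusted p below 0.05, where 10.8% of all tested genes were. Their median was 0.04 against Aged-CON 1 and 0.34 against Aged-CON 2 and 3, and 3 had negative differences. Jchain, the joining chain of secreted antibodies, had 395, 434 and 311 FPKM in Aged-TBI and 387, 114 and 250 FPKM in Aged-CON (adjusted p = 0.189). Of 18 megakaryocyte and platelet genes 1 was lower at an unadjusted p below 0.05, where 13.1% of all tested genes were. Their median was −0.15 against Aged-CON 1 and −0.51 against Aged-CON 2 and 3. Pf4, platelet factor 4, ran from 18.7 to 77.6 FPKM in Aged-TBI and from 46.0 to 94.1 FPKM in Aged-CON. Among 5 osteoclast genes none was called, and 2 were higher and 2 lower at an unadjusted p below 0.05. The list median was 0.40 against Aged-CON 1 and 0.03 against Aged-CON 2 and 3. Acp5, tartrate-resistant acid phosphatase, had 44.5, 71.4 and 57.3 FPKM in Aged-TBI and 42.8, 33.8 and 29.4 FPKM in Aged-CON (log2 difference 0.68, adjusted p = 0.11).

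The injury effect in aged marrow was set against that in young marrow by the interaction of injury and age. Young injury called 606 genes (5.15%), and 11 of the 38 were among them. Of the 38, 33 had the same sign at both ages, a count that was not set against all tested genes. The interaction called 23 genes (0.195%), 4 of them among the 38: Fos, Junb, Osm and Hist1h1c. For Fos the log2 change was −2.26 in aged and −0.11 in young marrow, a difference of −2.15 (adjusted p = 0.027). For Junb the aged change was −1.13 and the young one −0.08, a difference of −1.05 (adjusted p = 0.0491). The immediate early list as a whole also had members that fell in young marrow, 7 of 18 there and 4 of 18 in aged marrow. Of all tested genes, 5.15% were called in young and 0.323% in aged marrow, so these counts do not compare the sizes of the falls. The list median was −0.36 in aged and −0.22 in young marrow, and its median interaction was −0.06. Ier5 had a log2 change of −0.37 in aged and −0.56 in young marrow. Of the 20 feedback inhibitors, 2 fell in aged and 6 in young marrow, with list medians of −0.23 and −0.29 and a median interaction of −0.01. Kitl rose at both ages, by 1.92 in aged and 1.31 in young marrow, and the interaction did not pass (0.61, adjusted p = 0.228). H2-K1 fell by 0.88 in aged and by 0.85 in young marrow (interaction −0.02, adjusted p = 0.966).

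Primary granule genes of neutrophil progenitors rose in young marrow, 10 of 11 tested members passing there, and none passed in aged marrow. Of all tested genes, 5.15% passed in young and 0.323% in aged marrow. The interaction was called for 8 of the 11, each with the lower change in aged marrow. Mpo had 834, 737 and 805 FPKM in Aged-TBI and 896, 824 and 827 FPKM in Aged-CON, against 1230, 940 and 1140 FPKM in Young-TBI and 586, 668 and 571 FPKM in Young-CON (interaction −0.96, adjusted p = 0.0478). Ms4a3, which marks progenitors of granulocytes and monocytes, had 121, 118 and 118 FPKM in Aged-TBI and 129, 128 and 130 FPKM in Aged-CON, against 173, 142 and 189 FPKM in Young-TBI and 78.7, 91.1 and 89.3 FPKM in Young-CON (interaction −1.06, adjusted p = 0.027). In both genes the aged groups lay close together between the 2 young groups. The interaction count was 0 with the replicate number as a block and ran from 0 to 2104 when 1 sample was left out. It was 0 without Aged-TBI 3, Aged-CON 2, Young-TBI 1, Young-TBI 3, Young-CON 1 or Young-CON 3.

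**Figure D4:**
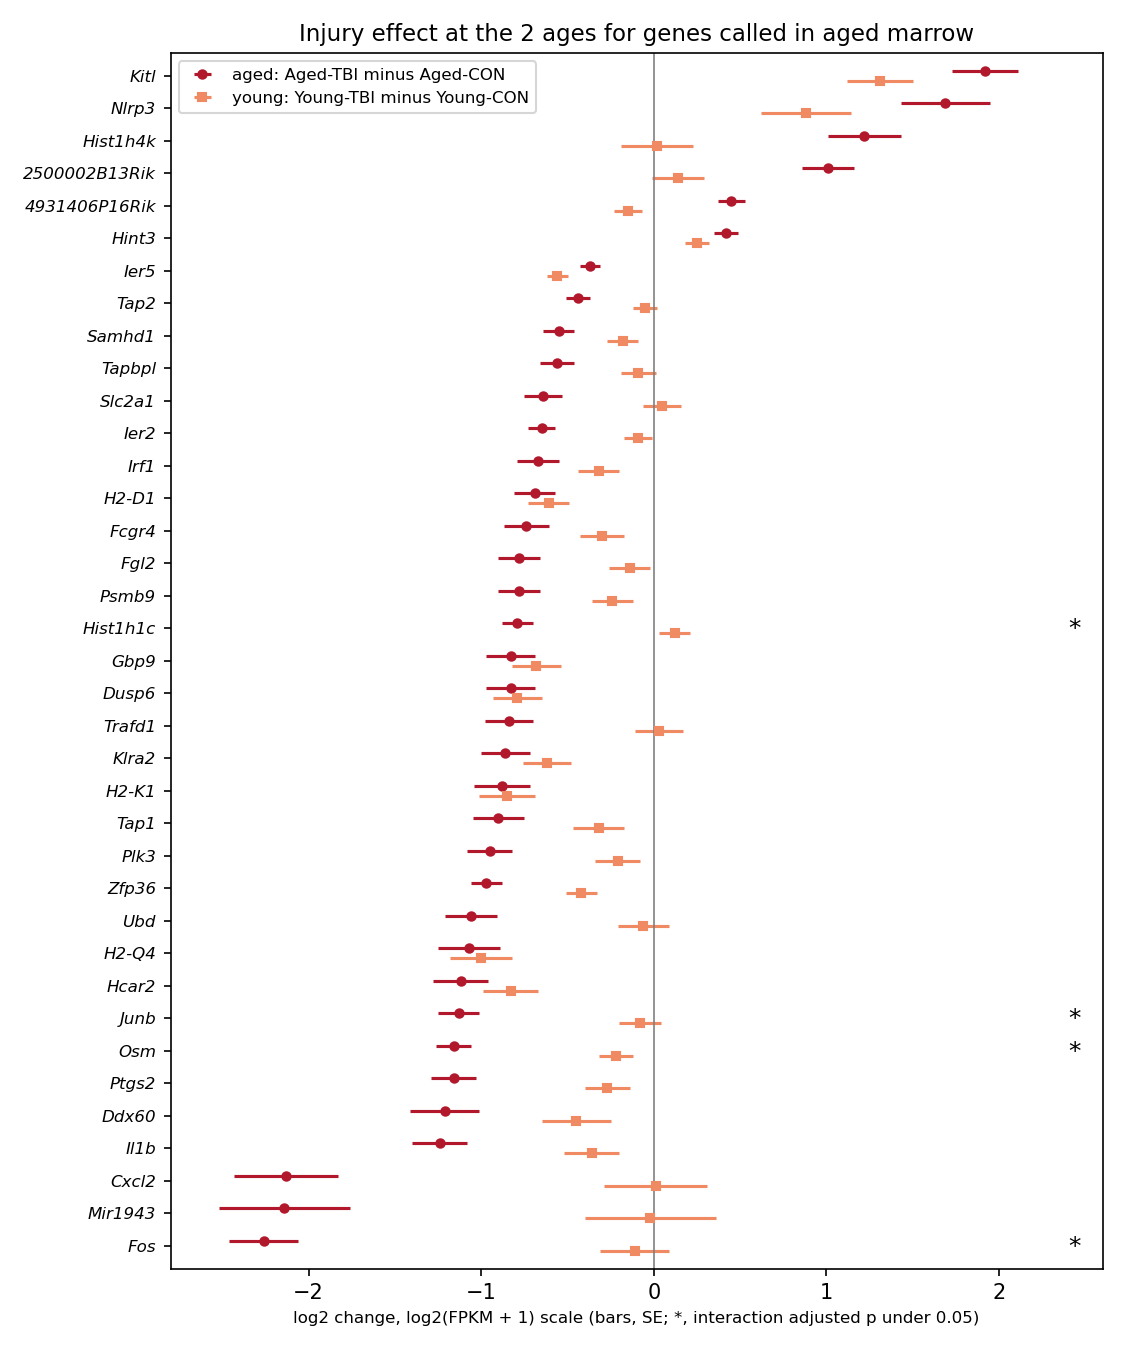
The log2 change with injury in aged marrow (circles, Aged-TBI minus Aged-CON) and in young marrow (squares, Young-TBI minus Young-CON) is plotted with its SE for 37 of the 38 genes called in aged marrow, and an asterisk marks an interaction at an adjusted p under 0.05. Asterisks stand at Hist1h1c, Junb, Osm and Fos, where the young change lies between −0.22 and 0.12.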

How the data were processed

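The authors deposited FPKM per gene symbol for all 12 samples. Per the labels' protocols, TRIzol served for RNA and a SMARTER mRNA-Seq kit for libraries. Among the names in the submitters' processing notes are mm10, GRCm38 and R 4.3.3. The aligner, the counter, the annotation and whether strand was used: not given in the sources used here. FPKM is relative, so a rise of abundant genes lowers the others. Of 24421 entries, 11767 reached 1 FPKM in at least 3 of the 12 samples and were tested. Of these, 19 have names turned into dates and are not named.

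A linear model of log2(FPKM + 1) was fitted by limma 3.58.1 (R 4.3.3) to all 12 samples, with a mean for each group and a variance trend. Tests were two-sided, with Benjamini-Hochberg adjustment over all tested genes, and limma gave every adjusted p. The script was tested on simulated data. A gene is said to rise or fall at an adjusted p under 0.05. The interaction is the aged minus the young injury effect, and it uses all 6 aged samples with the aged comparison. Whole fragments were recovered within 0.05 for 99.7% of tested genes. The chi-square over its degrees of freedom between samples of 1 group was 4.49 to 48.3, above counting noise, so no pair was treated as 1 library deposited more than once. That does not show that samples are separate animals.

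Named genes are every called gene, up to 4 members per list with the smallest p, the 10 largest non-overlapping rises and falls, those with the smallest adjusted p without Aged-CON 1, and fixed genes. Some are left out for length, and a few results are not reported here. Members and lists were chosen with earlier results of these data known. Coordinates and promoters are from RefSeq on GRCm38.p6, and overlaps from GENCODE M21.

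Alternatives were other pseudocounts, filters and scalings, only the aged samples, no variance trend, weights per sample, an erythroid covariate, voom on recovered fragments, a replicate block, and leaving out samples.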

Additional observations from a re-analysis of the deposited data

Results flagged for a closer look

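The interaction of injury and age, a test of the difference between the aged and the young effect, passed for 9 of the genes named. Among genes that fell in aged marrow, the interaction was −2.15 for Fos, −1.05 for Junb, −0.94 for Osm and −0.91 for Hist1h1c on the log2 scale (adjusted p = 0.027, 0.0491, 0.0478 and 0.027). Among granule genes that did not pass in aged marrow, it was −0.96 for Mpo, −1.06 for Ms4a3 and −0.75 for Nkg7 (adjusted p = 0.0478, 0.027 and 0.0491). It was −1.73 for Cfb, complement factor B, which had 1.03, 2.31 and 1.86 FPKM in Aged-TBI and 4.63, 4.11 and 3.11 FPKM in Aged-CON, against 5.54, 4.60 and 7.29 FPKM in Young-TBI and 2.22, 3.46 and 2.55 FPKM in Young-CON (adjusted p = 0.0491). It was −2.10 for Stfa2, a stefin with near-identical copies, with 5.09, 4.63 and 4.22 FPKM in Aged-TBI and 4.08, 6.59 and 10.6 FPKM in Aged-CON, against 10.5, 9.06 and 10.3 FPKM in Young-TBI and 1.55, 3.39 and 2.64 FPKM in Young-CON (adjusted p = 0.0491).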

How the results depend on the processing

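The aged comparison called 38 genes and the interaction 23. With a change of setting the aged count was 17 with no low-value filter, 11 with only the 6 aged samples, 21 with no variance trend, 3557 with weights per sample, 10 with the erythroid covariate and 3527 without both Aged-CON 1 and Young-CON 2. The interaction count was 2 with no low-value filter, 40 with a filter at 5 FPKM, 6 with no variance trend, 5 after rescaling without the 50 highest genes, 2977 with weights per sample, 2 with the erythroid covariate, 47 by voom on recovered fragments and 3043 without both of those controls. Leaving out 1 sample gave 11 to 3266 aged calls and 0 to 2104 interaction calls. Voom called 41 genes in the aged comparison, 7.3% of them higher, against 18.4% in the fit of log2(FPKM + 1). Of the interaction calls, 24% were higher after quantile normalization and 25.5% by voom, against 8.7%.

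The labels state no pairing of samples by replicate number. Deviations of same-numbered aged samples correlated at −0.016, −0.077 and −0.064. With 3 samples a group, this cannot show whether samples were collected or processed together. With the replicate block 38 genes were called in the aged comparison, 32 of them among the 38, and 0 in the interaction.

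Of 2517 values of named genes under the alternatives, 8 changed sign, none of them of a called gene. With the erythroid covariate the log2 difference was −0.12 for Gata1, −0.30 for Alas2, 0.11 for S100a8, 0.01 for S100a9, 0.00 for Ms4a3, 0.21 for Stfa2 and −0.00 for Mt1, and with quantile normalization it was 0.00 for S100a8. Gata1 is a member of the list whose mean level was the covariate, so that fit takes out the change it shares with the list. Its change of sign is therefore no result. The cause of the other sign changes was not tested. With 3 samples a group, genes of few fragments such as Mir1943, Ubd and Ptgs2 are limited by depth.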
